A study of Mus musculus with 6 samples.

Results

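The genes of the mitochondrial respiratory chain and ATP synthase were taken from the expression table by symbol: names starting with Nduf (complex I), Sdha to Sdhd (complex II), Uqcr and Cyc1 (complex III), Cycs (cytochrome c), Cox4 to Cox8 (complex IV), Atp5 (complex V), and every gene of the mitochondrial genome, whose names start with mt-. The rule took 112 of the 27179 genes in the table, 99 from the nuclear genome and 13 from the mitochondrial genome. Of the nuclear genes, 37 encode complex I, 4 complex II, 9 complex III, 1 cytochrome c, 17 complex IV and 17 complex V. A further 8 are Ndufaf assembly factors of complex I, and 6 are paralogs or extra copies (Cox7a2l, Ndufa4l2, Ndufs6b, Ndufb11b and 2 rows that share the symbol Ndufb4 but carry the Gene IDs of Ndufb4b and Ndufb4c). A gene was tested if 3 or more libraries had a normalized count of 10 or more, and 104 genes were, 93 nuclear and 11 mitochondrial. The 8 that did not were Sdhd, Uqcr11, Cox7b2, Cox8b, Cox8c, Ndufb11b, mt-Atp8 and mt-Nd4l.

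Messenger RNA was sequenced from cultured mouse vascular smooth muscle cells, primary cells isolated from the aorta, in 3 WT libraries and in 3 whose labels read Bmal1 KO. Bmal1 is the clock transcription factor listed in the table as Arntl. Before harvest both genotypes spent 7 days in serum-containing medium to which glucose at 4.5 g/L and H2O2 at 0.3 mM had been added (the diabetic condition), so the single comparison is between genotypes under that treatment. The labels give no Cre driver, allele, age or strain, and all 6 libraries carry 1 batch date. They do not say whether replicates came from separate animals or cultures: the spread that the p-values rest on is that of these libraries and may be technical. Values per library are normalized counts in the order of replicates 1, 2 and 3.

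The respiratory chain sits in the inner mitochondrial membrane and passes electrons from NADH (through complex I) or succinate (through complex II) by way of ubiquinone, complex III and cytochrome c to complex IV, which reduces oxygen. Complexes I, III and IV pump protons, and complex V uses the resulting gradient to make ATP. Most subunits are encoded in the nucleus and imported, while a few hydrophobic core subunits of complexes I, III, IV and V are encoded by the mitochondrial DNA, so that every complex except II is built from both genomes. In vascular smooth muscle the chain supplies ATP and is also a source of reactive oxygen species.

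Sequences of both genomes bear on how these values can be read. A stretch of chromosome 1 carries a copy of part of the mitochondrial genome, in the form of annotated pseudogenes between 24611535 and 24615565 (GRCm38). The copy of mt-Co2 there (Gm28661, chr1:24614885-24615565, minus strand) was identical over all 681 aligned bases, and that of mt-Nd3 (Gm28438, chr1:24612775-24613119, minus strand) differed from the gene at 1 base of 345, T3C counted from the first base of the gene. The first 60 bases of each gene and its copy are shown because reads from the 2 places are nearly alike, with the differing base in capitals.
mt-Co2: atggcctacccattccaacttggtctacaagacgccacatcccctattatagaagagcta
Gm28661: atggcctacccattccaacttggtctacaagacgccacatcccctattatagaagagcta
mt-Nd3: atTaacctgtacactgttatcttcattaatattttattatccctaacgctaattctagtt
Gm28438: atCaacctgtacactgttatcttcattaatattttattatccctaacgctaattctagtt

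Among the nuclear genes, 79 of 99 matched a promoter window in RefSeq (GRCm38.p6), from 250 bases before to 50 after the start site. The windows were searched on both strands for GCGCATGC (core of the NRF1 site), CCGGAAGT (the site of GABP and other ETS factors), AAGGTCA (estrogen-related receptors), AAGATGG (YY1) and CACGTG (the E-box that CLOCK and BMAL1 bind). The NRF1 letters were in 13 of 79 (16.5%), against 3.05% of all 27025 genes with a window and 5.31% of the 12174 of them that were tested. YY1 letters were in 12 (15.2%, against 7.28% of all and 7.80% of tested genes), estrogen-related receptor letters in 8 (10.1%, against 5.38% and 3.92%), GABP letters in 5 (6.33%, against 4.31% and 7.89%) and the E-box in 6 (7.59%, against 8.09% and 11.2%). The NRF1 letters stood in 4 of the 47 windows of genes that fell and in 7 of the 26 that did not pass, and the E-box in 2 and 4. These are matches of letters and not shown to be bound. The 250 bases before the start site, all on the minus strand and written 5′ to 3′ with matches in capitals, are printed for the complex I gene that fell most, for one gene that fell and carries the NRF1 letters, for one that fell and carries the GABP letters, and for Cycs, which did not pass.
Ndufs5, chr4:123718187-123718436, estrogen-related receptor letters: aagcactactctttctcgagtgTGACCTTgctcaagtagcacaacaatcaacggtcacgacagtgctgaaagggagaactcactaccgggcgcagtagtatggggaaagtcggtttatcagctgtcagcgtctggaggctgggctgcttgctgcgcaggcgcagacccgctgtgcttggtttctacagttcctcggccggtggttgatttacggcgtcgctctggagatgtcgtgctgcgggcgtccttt
Ndufa6, chr15:82354292-82354541, NRF1 letters: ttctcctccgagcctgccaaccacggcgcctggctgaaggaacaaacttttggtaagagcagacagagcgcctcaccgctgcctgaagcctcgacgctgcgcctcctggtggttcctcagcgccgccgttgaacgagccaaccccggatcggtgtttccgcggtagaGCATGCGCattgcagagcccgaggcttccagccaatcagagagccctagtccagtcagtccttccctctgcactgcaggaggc
Uqcrh, chr4:116075071-116075320, GABP letters: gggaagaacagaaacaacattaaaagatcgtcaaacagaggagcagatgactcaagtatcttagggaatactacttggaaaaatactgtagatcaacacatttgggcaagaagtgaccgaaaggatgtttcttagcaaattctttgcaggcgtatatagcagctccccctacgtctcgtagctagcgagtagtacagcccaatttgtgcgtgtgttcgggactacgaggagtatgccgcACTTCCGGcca
Cycs, chr6:50566570-50566819, NRF1 letters: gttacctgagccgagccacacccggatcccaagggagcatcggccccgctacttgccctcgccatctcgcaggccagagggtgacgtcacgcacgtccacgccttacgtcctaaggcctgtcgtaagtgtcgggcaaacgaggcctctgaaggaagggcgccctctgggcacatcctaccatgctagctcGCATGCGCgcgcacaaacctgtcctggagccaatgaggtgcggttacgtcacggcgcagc

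Libraries held 32503525 to 44657471 assigned reads and 18650 to 19398 genes with reads. Arntl was higher in the libraries labelled Bmal1 KO (579 ± 45.7 in WT and 1005 ± 54.9 in Bmal1 KO, SD, n = 3), so its gene-level count does not check the label. Xist was at 12.4 to 89.9 in WT and 3842 to 3887 in Bmal1 KO, and the labels give no sex. The groups did not overlap in Xist, so any difference that goes with it, such as sex, cannot be told apart from genotype. Of the smooth muscle markers that define the labelled cell type, Acta2 was at 20688 in WT and 62931 in Bmal1 KO and Myh11 at 35.9 and 274 (means of 3). Of all 10 such markers, 9 were higher in Bmal1 KO and 1 did not pass. Of all genes tested, 36.2% were higher and 34.9% lower. The summed levels of the smooth muscle markers were 55625 to 62294 in WT and 154660.0 to 164820.0 in Bmal1 KO. Markers of other cells are given beside the same shares. Of 10 endothelial genes 7 were higher and 1 lower (sums 768 to 892 and 1073 to 1404). Of 9 macrophage genes 7 were higher and 2 lower although their sum was lower (3585 to 4146 and 2316 to 2623). Of 10 fibroblast genes 6 were higher and 4 lower (74059 to 79770.0 and 196930.0 to 209210.0). Of 3 adipocyte genes 2 were higher and 1 lower (1877 to 2564 and 5588 to 7118). Of 6 striated muscle genes 2 were higher and 2 lower (528 to 588 and 479 to 523), close to the shares of all genes. Lep and Ucp1 were at 0 in every library. The part of these differences in the results below was not tested, and in such bulk cultures fewer cells of a type and less RNA per cell cannot be told apart. WT replicate 1 stood apart within its group for these genes: it was the highest of the 3 WT libraries in 93 of the 104 tested, including all 37 of complex I, and Bmal1 KO replicate 1 was the highest of its group in 79. Results are therefore given with and without WT replicate 1 where it matters.

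Respiratory chain mRNAs of the nuclear genome were mostly lower in Bmal1 KO. Of 93 tested, 59 fell, 3 rose (Ndufs1, Ndufaf5 and Cox4i2) and 31 did not pass (limma, Benjamini-Hochberg adjusted p under 0.05 over all genes tested). Of the 16086 genes tested in all, 71.1% were called, 36.2% higher and 34.9% lower, against 3.23% higher and 63.4% lower among these 93. The median log2 fold change (Bmal1 KO minus WT) was -0.55, beside -0.012 for all genes tested. In 62 of the 93 the WT and Bmal1 KO libraries did not overlap (66.7%), a smaller share than the 76.7% of all genes tested. Summed over the 99 genes, normalized counts were 462440.0, 366500.0 and 355860.0 in WT replicates 1, 2 and 3 and 275190.0, 240750.0 and 248820.0 in Bmal1 KO, a 1.55-fold difference of means. Every Bmal1 KO sum lay below every WT sum, also without WT replicate 1. Leaving out that library gave 55 lower, 4 higher and a median of -0.38, and leaving out Bmal1 KO replicate 2 or 3 gave 47 lower.

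**Figure D1:**
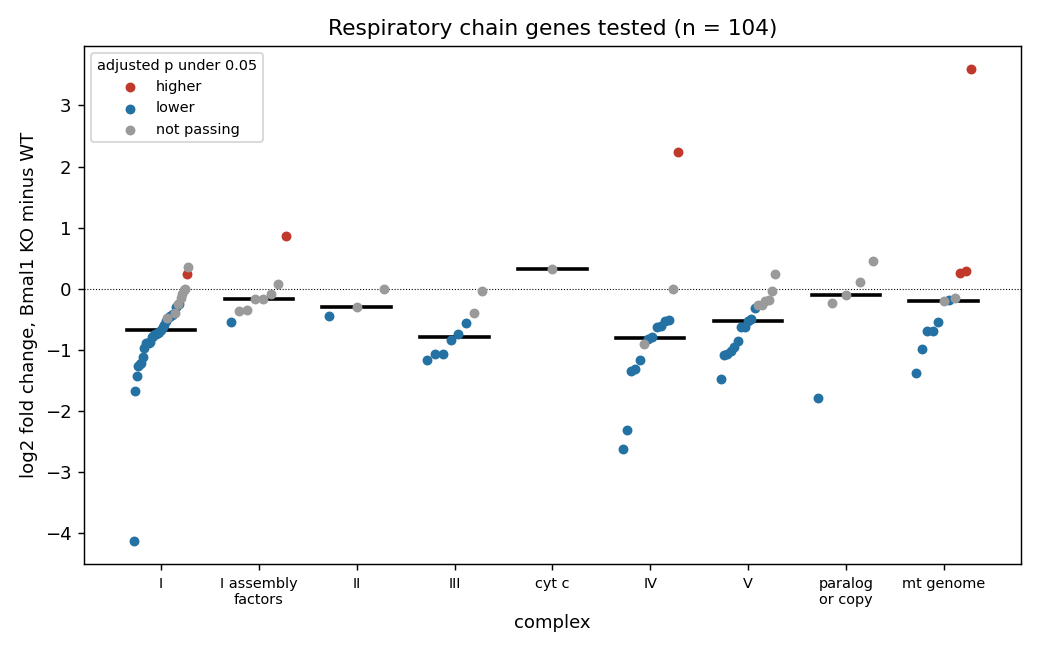
Log2 fold change (Bmal1 KO minus WT, vertical axis) of each of the 104 genes tested, grouped by complex, with the median of each group as a bar and the call by colour. Most points of complexes I, III, IV and V lie below 0, with Ndufs5 lowest at -4.12, while Cox4i2 (2.25) and mt-Nd3 (3.59) are the highest.

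The size of the difference varied between complexes. The summed normalized counts of complex IV were 2.02-fold lower in Bmal1 KO, those of complex I 1.60-fold and complex III 1.57-fold. Those of complex V were 1.35-fold, of complex II 1.12-fold and of the assembly factors 1.12-fold lower. The sums of the assembly factors overlapped between groups, at 5656, 4173 and 4536 in WT and 4727, 3961 and 4163 in Bmal1 KO. Genes with high counts weigh most in these sums. In WT means, Cox4i1 made up 29079 of 73827 for complex IV and Atp5b 49702 of 131450 for complex V. For complex IV the sums were 91639, 66479 and 63362 in WT and 41507, 32984 and 35426 in Bmal1 KO, 2 ranges that did not overlap. For complex II they were 20081, 18167 and 17618 in WT and 17155, 16431 and 16356 in Bmal1 KO, closer together but also without overlap. Median log2 fold changes per gene tested were -0.67 for complex I, -0.29 for II, -0.78 for III, -0.80 for IV and -0.53 for V. Without WT replicate 1 the same medians were -0.49, -0.14, -0.71, -0.53 and -0.35. Differences between complexes were not tested.

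**Figure D2:**
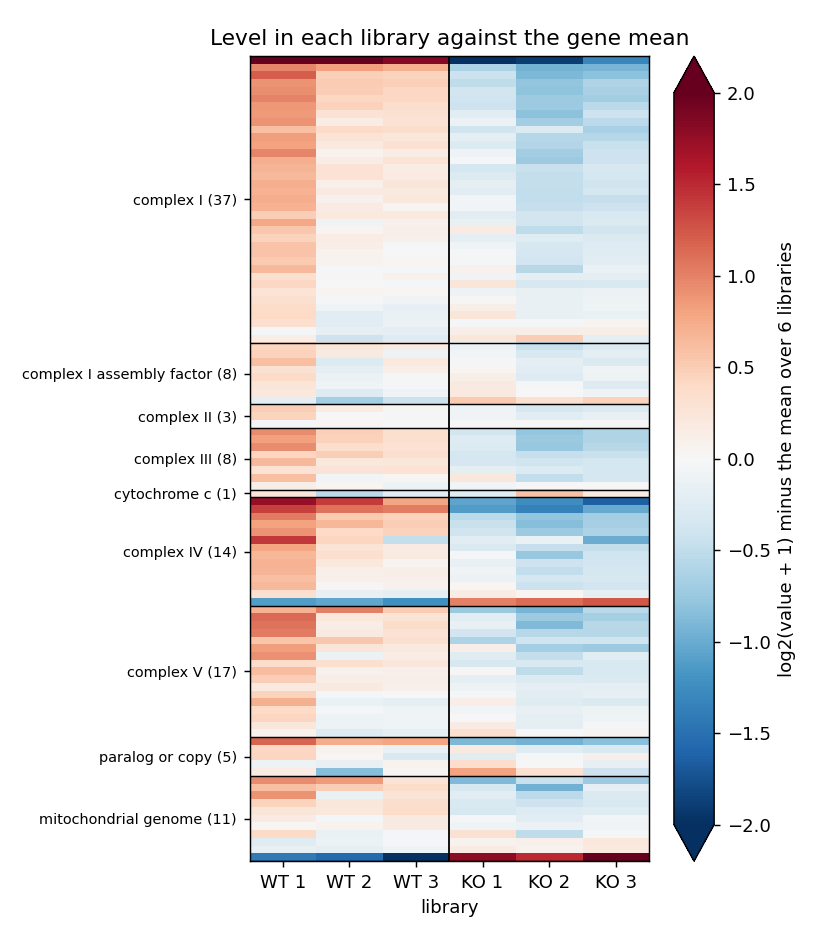
Level of the 104 genes tested (rows, by complex and then by fold change, number of genes in brackets) in each library (columns) as log2(value + 1) minus the gene's mean over the 6 libraries, with colours capped at 2. The WT columns are mostly red and the Bmal1 KO columns mostly blue, and WT replicate 1 is the deepest red in most rows.

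Most subunit mRNAs of complex I, which oxidizes NADH, were lower in Bmal1 KO. Of 37 subunit genes tested 28 fell, 1 rose and 8 did not pass. Those lower were 75.7% and those called in either direction 78.4%, beside 34.9% and 71.1% of all genes tested. The 7 nuclear-encoded core subunits, which hold the flavin and the iron-sulfur clusters, were not uniform: 5 fell, Ndufs1 rose and Ndufs3 did not pass. Ndufv1, the subunit that binds NADH and the flavin, stood at 6732, 5431 and 5246 in WT and 4348, 4156 and 4024 in Bmal1 KO (log2 fold change -0.47, SE 0.098, adjusted p = 0.00327). Its iron-sulfur partner Ndufv2 was at 5796, 3722 and 4134 in WT and 3054, 2499.9 and 2641 in Bmal1 KO (log2 fold change -0.71, SE 0.16, adjusted p = 0.00442). Both were lower in all 3 Bmal1 KO libraries than in any WT library.

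Ndufs7, which carries the last iron-sulfur cluster before ubiquinone, read 3813, 2897 and 2612 in WT and 1855, 1747 and 1889 in Bmal1 KO (log2 fold change -0.75, SE 0.13, adjusted p = 0.00129). Ndufs8, another cluster protein, was at 3066, 2396 and 2202 and 1628, 1417 and 1535 (log2 fold change -0.73, SE 0.12, adjusted p = 0.00108). They fell 1.70-fold and 1.67-fold without overlap, with WT replicate 1 highest each time. Ndufs1, the largest core subunit (chr1:63143592-63176822), went the other way, from 3465, 3137 and 3112 in WT to 3851, 3864 and 3807 in Bmal1 KO (log2 fold change 0.25, SE 0.063, adjusted p = 0.00791). Its 1.19-fold rise, without overlap between groups, lost its call once a trend of fold change on exon length and base composition was taken out (adjusted p = 0.189). Ndufs3 was at 1494, 1174 and 1134 and 1209, 1079 and 1115, groups that overlapped (log2 fold change -0.15, SE 0.11, adjusted p = 0.264), and 35.8% of its 50-base windows also occur in another annotated gene, so reads could be split between copies.

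The largest fall of any gene described here was that of Ndufs5, an accessory subunit on the intermembrane-space side of complex I (chr4:123712710-123718186, promoter printed above). It was at 612, 482 and 426 in WT and 14.3, 31.2 and 48.0 in Bmal1 KO, 16.3-fold lower (log2 fold change -4.12, SE 0.40, adjusted p = 5.24e-05). The lowest WT value was several times the highest Bmal1 KO value. Its processed pseudogene Ndufs5-ps on chromosome 16, annotated as BC002163, shares 31.1% of its 50-base windows and read higher than the gene itself in all 6 libraries. Ndufs5-ps was at 919, 722 and 659 in WT and 827, 569.5 and 651 in Bmal1 KO, groups that overlapped (log2 fold change -0.17, SE 0.17, adjusted p = 0.388). The sources used here do not say how reads that match several places were counted, so the level of Ndufs5 is uncertain.

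Other accessory subunits of complex I fell by less. Ndufv3, part of the module that oxidizes NADH, went from 5264, 4721 and 4388 to 1729, 1400.4 and 1412, 3.16-fold lower (log2 fold change -1.66, SE 0.10, adjusted p = 5.45e-06), with no window shared with another gene and groups far apart. Ndufa2, of the same module, was 2.74-fold lower (adjusted p = 0.000575) and Ndufa6, one of the subunits with an LYR motif, 2.40-fold lower (adjusted p = 7.28e-05). Ndufab1, the mitochondrial acyl carrier protein that binds LYR subunits, was at 594, 397 and 435 in WT and 352, 216 and 269.6 in Bmal1 KO (adjusted p = 0.0121). It fell 1.70-fold without overlap. Among those that did not pass were Ndufa8 (614 ± 131 in WT and 607 ± 20.6 in Bmal1 KO, SD, n = 3), Ndufb6 (1564 ± 386 and 1526 ± 248) and Ndufa11 (2826 ± 583 and 2650.0 ± 267). In each of these 3 the means differed by less than the SD of WT. Ndufa3, Ndufb3, Ndufb4, Ndufs3 and Ndufa1 were the others that did not pass, and in all 8 the groups overlapped. Ndufa3 (log2 fold change -0.47) passed without WT replicate 2 (adjusted p = 0.0419) and without Bmal1 KO replicate 1 (0.00771). The 28 lower genes had no overlap between groups, with log2 fold changes between -0.25 and -4.12. They were called on these same values, so the lack of overlap is no separate evidence. Of all genes tested, 76.7% did not overlap.

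The chain has 3 X-linked genes, given here because Xist differed between the groups. Ndufb11, an accessory subunit of complex I, was at 6154, 4641 and 4275 in WT and 2513, 2031 and 2320.1 in Bmal1 KO (log2 fold change -1.12, SE 0.14, adjusted p = 0.000222). Cox7b, a small subunit of complex IV, was at 5274, 3551 and 3611 and 3152, 2352 and 2597 (log2 fold change -0.60, SE 0.17, adjusted p = 0.0127). Both fell, and their groups did not overlap. Ndufa1, a small accessory subunit of complex I, was at 1687, 1255 and 1245 and 1492, 1017 and 1030.4, groups that overlapped (log2 fold change -0.25, SE 0.18, adjusted p = 0.232), and it passed only when Bmal1 KO replicate 1 was left out (adjusted p = 0.0349) among the single omissions.

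Assembly factors of complex I help to build it and are not in the finished enzyme. Of 8 tested, Ndufaf7 fell, Ndufaf5 rose and 6 did not pass, so 25% were called, against 71.1% of all genes tested. Ndufaf5, which modifies the subunit Ndufs7, was at 418, 298 and 352 in WT and 687, 591 and 655 in Bmal1 KO (log2 fold change 0.87, SE 0.14, adjusted p = 0.000807). Ndufaf7, a methyltransferase, was at 1555, 1341 and 1293 and 1065, 845 and 956 (log2 fold change -0.55, SE 0.11, adjusted p = 0.00249). Neither pair of groups overlapped: Ndufaf5 rose 1.81-fold and Ndufaf7 fell 1.46-fold. The median log2 fold change of the 8 was -0.16, and a difference between factors and subunits was not tested.

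Complex II, the only complex without a mitochondrial gene and also an enzyme of the tricarboxylic acid cycle, differed little. Its flavoprotein gene Sdha was at 10435, 10806 and 10648 in WT and 10584, 10714 and 10419 in Bmal1 KO, ranges that overlapped, with a difference close to 0 (log2 fold change -0.0078, SE 0.055, adjusted p = 0.904). Sdhb, the iron-sulfur subunit, was at 3734, 2737 and 2702 and 2613, 2344 and 2467 and did not pass although its groups did not overlap (log2 fold change -0.29, SE 0.13, adjusted p = 0.069). Among other alternatives it passed with edgeR on recovered reads (adjusted p = 0.0383) and without WT replicate 2 (0.0402) or 3 (0.0481). Sdhc, a membrane anchor, was at 5908, 4619.7 and 4262 and 3949.7, 3351 and 3456 and fell 1.37-fold (log2 fold change -0.45, SE 0.13, adjusted p = 0.0126). Sdhc was the only complex II gene past the threshold, 33.3% of those tested, beside 71.1% of all genes tested. Its partner Sdhd was listed at 3.67, 4.15 and 5.53 in WT and 9.17, 21.6 and 13.7 in Bmal1 KO, too low to be tested. Per kilobase of exon, the WT mean level of Sdhd was 3.61 normalized counts, against 1517 for Sdhc and 2576 for Sdha. None of its 50-base windows is in another annotated transcript, and genome sequence outside annotated transcripts was not searched.

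Complex III passes electrons from ubiquinol to cytochrome c, and 6 of its 8 genes tested fell while none rose. These 75% lower stand beside 34.9% lower and 71.1% called in either direction of all genes tested. Cytochrome c1, encoded by Cyc1, was at 6845, 7097 and 6353 in WT and 3982, 3657 and 3716 in Bmal1 KO (log2 fold change -0.84, SE 0.067, adjusted p = 1.90e-05). Uqcrfs1, the Rieske iron-sulfur protein, was at 5573, 4135 and 4183 and 2811, 2690.5 and 2778 (log2 fold change -0.73, SE 0.11, adjusted p = 0.000697). These 2 electron-carrying subunits fell by 1.79-fold and 1.68-fold without overlap. The core proteins Uqcrc1 and Uqcrc2, which hold no redox centre, differed from each other. Uqcrc2 was at 5983, 5883 and 6026 and 4277, 4061 and 3838, without overlap (log2 fold change -0.56, SE 0.061, adjusted p = 0.000102), while Uqcrc1 was at 8643, 8163 and 7430.5 and 7712, 7985 and 7938, with overlap (log2 fold change -0.034, SE 0.07, adjusted p = 0.679). Among the small subunits, Uqcrq fell most, 2.27-fold, from 8363, 6078 and 5465 to 3368, 2550.2 and 2869.6 (adjusted p = 0.00042). Uqcr10 was at 3928, 3067 and 2765 and 1871, 1333 and 1464, 2.09-fold lower (adjusted p = 0.000577), and Uqcrh, the hinge protein whose promoter is printed above, fell 2.11-fold (adjusted p = 0.00144). None of these small subunits had overlapping groups. Uqcrb, with 43.2% of its windows shared, did not pass (1075 ± 277 and 823 ± 225), and among single omissions it passed without Bmal1 KO replicate 1 (adjusted p = 0.0311). Uqcr11 was at most at 2.28 in any library.

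Cytochrome c itself, the mobile carrier between complexes III and IV encoded by Cycs, was at 214, 126 and 155 in WT and 152, 272 and 202 in Bmal1 KO. The groups overlapped and Cycs did not pass (log2 fold change 0.33, SE 0.26, adjusted p = 0.286). Of its 50-base windows 28.5% occur in another annotated gene, mostly Gm10053, so its level is uncertain.

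Complex IV, cytochrome c oxidase, had log2 fold changes from -2.62 to 2.25. Of 14 genes tested 11 fell, Cox4i2 rose and 2 did not pass. In complex IV 78.6% were thus lower and 85.7% called in either direction, beside 34.9% and 71.1% of all genes tested. Several of its subunits have a common isoform and one found mainly in certain tissues, and these were compared pair by pair. Cox4i1, the common form of the regulatory subunit 4, was at 36788, 25855 and 24595 in WT and 12324, 10342 and 11189 in Bmal1 KO (log2 fold change -1.35, SE 0.15, adjusted p = 0.000129). Cox4i2, its isoform known from lung and from cells low in oxygen (chr2:152753916-152765039), was at 11.0, 11.6 and 10.1 and 51.0, 55.2 and 60.5, 5.09-fold higher (log2 fold change 2.25, SE 0.26, adjusted p = 0.000138). The 2 isoforms thus moved in opposite directions, each without overlap between groups. Per kilobase of exon, the mean level of Cox4i1 was 18761 normalized counts in WT and 7281 in Bmal1 KO, against 13.9 and 70.5 for Cox4i2, so Cox4i1 stayed the more abundant mRNA.

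Subunit 6 genes fell in both forms. Cox6a2, the heart and skeletal muscle form, was at 139, 110.3 and 71.8 in WT and 19.4, 16.8 and 12.6 in Bmal1 KO, 6.60-fold lower (log2 fold change -2.62, SE 0.31, adjusted p = 0.000176), and the common form Cox6a1 was at 11889, 8534 and 7625 and 6623, 5555 and 5660.3, 1.57-fold lower (log2 fold change -0.63, SE 0.16, adjusted p = 0.00769). Cox6b2, known from testis, was at 561, 459 and 441 and 99.9, 83.9 and 107, 5.02-fold lower (log2 fold change -2.32, SE 0.16, adjusted p = 7.95e-06). In these 3 genes the groups did not overlap. The common form Cox6b1 was at 8845, 5708 and 5971 and 5758, 4172 and 4329 (log2 fold change -0.51, SE 0.19, adjusted p = 0.0372), with Bmal1 KO replicate 1 just above the lowest WT library. Its call was lost without WT replicate 1 (adjusted p = 0.0689) and without Bmal1 KO replicate 2 (0.119) or 3 (0.114).

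Subunit 7 and 8 genes were read in the same way. Cox7a1, the muscle form, was at 40.4, 19.9 and 10.1 in WT and 12.2, 13.2 and 6.85 in Bmal1 KO (log2 fold change -0.90, SE 0.53, adjusted p = 0.159), and it passed without WT replicate 3 (adjusted p = 0.0448). The common form Cox7a2 was at 63.3, 45.6 and 44.2 and 56.0, 51.6 and 44.6 (adjusted p = 0.989). Both pairs of groups overlapped. Cox7a2l, a paralog that links complexes III and IV into supercomplexes (chr17:83501917-83514333), was at 15798, 11806 and 12242 and 3787, 3671 and 3979.9, 3.48-fold lower (log2 fold change -1.79, SE 0.11, adjusted p = 5.14e-06). Its groups were far apart, and 17.7% of its windows are shared, with the processed pseudogene Gm6969. Cox8a, the common form of subunit 8, was at 11168, 10026 and 8914 and 4679, 3519 and 4028 (log2 fold change -1.30, SE 0.12, adjusted p = 4.18e-05) and fell 2.46-fold without overlap, while Cox8b, Cox8c and Cox7b2 were at 0 in most libraries and at most 5.71 in any. Cox5a and Cox5b, which bind the core, were at 5951, 4211 and 4201 and 3605, 3080.2 and 3145 (log2 fold change -0.53, SE 0.14, adjusted p = 0.00975) and at 3144, 2499 and 2247 and 1946, 1177 and 1498 (log2 fold change -0.79, SE 0.19, adjusted p = 0.0064). Both fell without overlap, as did Cox6c (2.27-fold, adjusted p = 0.0002) and Cox7c (1.79-fold, adjusted p = 0.00327, 27.9% of windows shared). Ndufa4, grouped with complex I by its name although its protein is now placed in complex IV, was at 6087, 3908 and 4263 and 3543, 2616 and 2697 (log2 fold change -0.67, SE 0.18, adjusted p = 0.0103), and its paralog Ndufa4l2, known as a hypoxia-inducible gene, was at 246, 187 and 147 and 156, 177 and 195 and did not pass (adjusted p = 0.655).

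**Figure D3:**
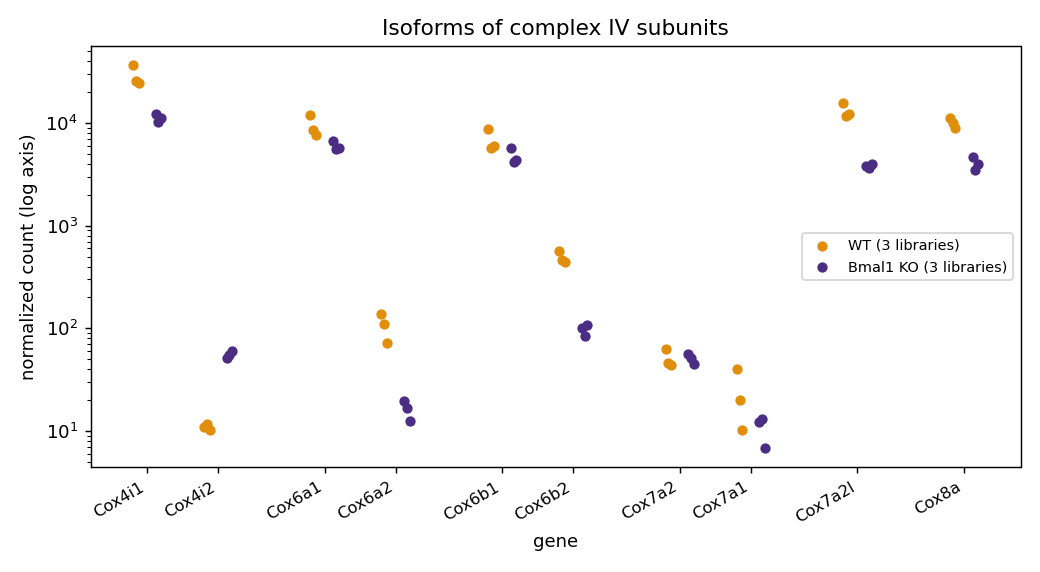
Normalized counts (log axis) of complex IV isoform genes and the paralog Cox7a2l in each library, WT in orange and Bmal1 KO in purple. Cox4i2 is the only one shown that is higher in all Bmal1 KO libraries, at 51.0 to 60.5 against 10.1 to 11.6 in WT, while Cox7a2 and Cox7a1 overlap.

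Complex V, the ATP synthase, had 11 of 17 genes lower, none higher and 6 not passing. In complex V 64.7% were thus lower, beside 34.9% lower and 71.1% called in either direction of all genes tested. Its catalytic head is formed by the alpha and beta subunits. The gene of the alpha subunit, Atp5a1, was at 34032, 32786 and 30799 in WT and 21049, 21252 and 21289 in Bmal1 KO (log2 fold change -0.62, SE 0.069, adjusted p = 0.00012). Atp5b, the beta subunit, was at 50906, 50300.0 and 47901 and 41759.5, 39468 and 39094 (log2 fold change -0.31, SE 0.077, adjusted p = 0.00725). Both fell without overlap, by 1.54-fold and 1.24-fold. Of the central stalk, Atp5c1 (gamma) was at 7684, 5947 and 5955 and 4796, 4520.1 and 4436 (log2 fold change -0.50, SE 0.10, adjusted p = 0.00316), and Atp5d (delta) fell 1.92-fold (adjusted p = 5.21e-05). Atp5e (epsilon) was at 6444, 3403 and 3563 and 2507, 1762 and 1843, 2.19-fold lower (adjusted p = 0.00481), and the small membrane subunit Atp5mpl was at 2769.8, 1449 and 1685 and 1175, 705 and 886, 2.13-fold lower (adjusted p = 0.0068). None of these 4 genes of the stalk and membrane had overlapping groups. Among peripheral stalk genes, Atp5h fell 2.08-fold (adjusted p = 0.00266, 47.9% of windows shared), while Atp5o, at 5763, 4318 and 4131 and 4224, 3941 and 4072, Atp5pb, at 5826 ± 1152 and 4786 ± 346, and Atp5j, at 2732 ± 328 and 3252 ± 389, did not pass. Atp5pb passed as lower without WT replicate 2 (adjusted p = 0.0435) and Atp5j as higher without WT replicate 1 (0.0134).

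The membrane ring of ATP synthase is made of identical c subunits that 3 nuclear genes encode. Atp5g1 was at 1368, 939.5 and 963 in WT and 1020.0, 882 and 956 in Bmal1 KO (log2 fold change -0.17, SE 0.15, adjusted p = 0.313). Atp5g3 was at 8778, 7013 and 7056 and 8433, 6627 and 7266 (log2 fold change -0.032, SE 0.12, adjusted p = 0.815). Neither passed, and both pairs of groups overlapped. Atp5g2 was at 98.1, 123 and 86.6 and 35.7, 31.2 and 41.1 and fell 2.85-fold without overlap (log2 fold change -1.48, SE 0.23, adjusted p = 0.00063). Per kilobase of exon, mean levels in WT were 3492 normalized counts for Atp5g3, 222 for Atp5g1 and 61.2 for Atp5g2, and in Bmal1 KO 3412, 194 and 21.5. The c subunit gene that fell was thus the one with the lowest level per kilobase.

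Of the 5 tested paralogs and extra copies that the symbols bring in, 4 did not pass. These 4, all but Cox7a2l, had log2 fold changes of -0.23 to 0.46, all with overlapping groups. Ndufs6b, whose windows are shared with Ndufs6 to 25.4%, was at 62.4, 30.7 and 57.1 in WT and 98.8, 69.5 and 42.3 in Bmal1 KO (adjusted p = 0.309). Every window of Ndufb4c also occurs in Ndufb4, the complex I gene, which was itself at 96.3, 65.5 and 72.8 and 103, 123 and 76.5 (adjusted p = 0.22), so reads counted for Ndufb4c could come from either.

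Genes of the mitochondrial genome moved in both directions. All 13 encode membrane subunits of complexes I, III, IV or V and are transcribed as long RNAs that are then cut apart. Of 11 tested 6 fell (54.5%), 3 rose (27.3%) and mt-Nd2 and mt-Co3 did not pass. Their median log2 fold change was -0.20, and 9 of the 11 had groups that did not overlap, a share close to the 76.7% of all genes tested. Against the 34.9% lower and 36.2% higher of all genes tested these shares rest on few genes.

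**Figure D4:**
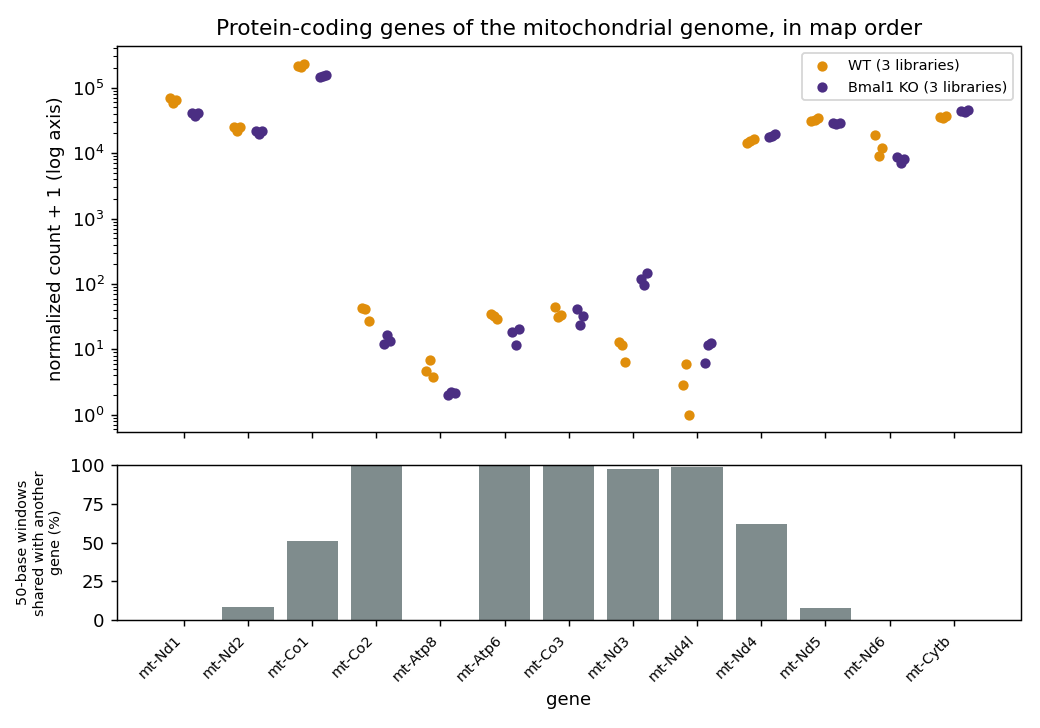
Top, normalized count + 1 (log axis) of the 13 protein-coding mitochondrial genes in map order for each library, WT in orange and Bmal1 KO in purple. Bottom, percent of each gene's 50-base windows that also occur in another annotated gene: the 6 consecutive genes from mt-Co2 to mt-Nd4l reach at most 147, and 5 of these 6 share 98.0% to 100% of their windows.

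The gene with the most reads here, mt-Co1, which encodes the catalytic subunit of complex IV, was at 214863, 209143 and 234245 in WT and 145382, 150917 and 154121 in Bmal1 KO (log2 fold change -0.55, SE 0.12, adjusted p = 0.00406). The complex I gene mt-Nd1 was at 68591, 58566 and 63956 and 40804, 37517 and 40767 (log2 fold change -0.68, SE 0.092, adjusted p = 0.000333). Both fell without overlap, by 1.46-fold and 1.60-fold, in every alternative run. Of the windows of mt-Co1, 51.1% also occur in other annotated genes, so its level is uncertain. Next to mt-Nd1, mt-Nd2 was at 25257, 21962 and 25479.9 and 22013, 19462 and 21738, overlapping, and did not pass (log2 fold change -0.20, SE 0.088, adjusted p = 0.0717), although it did without WT replicate 2 (adjusted p = 0.0167) and with edgeR (0.0419). Farther along, mt-Nd5 was at 31394, 31916 and 34536 and 28668, 28079.9 and 29016 (log2 fold change -0.19, SE 0.072, adjusted p = 0.0442). Its groups did not overlap, but its call was lost without WT replicate 3 (adjusted p = 0.119) and without Bmal1 KO replicate 1 (0.117), 2 (0.147) or 3 (0.106).

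By contrast, mt-Cytb, the only mitochondrial gene of complex III, rose from 36095, 34706 and 37458 in WT to 44688, 41869 and 45772 in Bmal1 KO, 1.22-fold (log2 fold change 0.29, SE 0.078, adjusted p = 0.0106). The complex I gene mt-Nd4 also rose, from 14084, 15438 and 16169 to 17572, 17979 and 19407, 1.20-fold (log2 fold change 0.27, SE 0.077, adjusted p = 0.0145), and 62.2% of its windows are shared with the copy on chromosome 1. Neither pair of groups overlapped. Both calls were lost without Bmal1 KO replicate 3 (adjusted p = 0.0541 for mt-Cytb and 0.0703 for mt-Nd4), leaving 1 mitochondrial gene called higher. That of mt-Nd4 was also lost when values were scaled to all assigned reads (0.0679) and once the trend on length and base composition was taken out (0.470). In complex III, then, the 6 nuclear genes past the threshold fell while the mitochondrial one rose.

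The only protein-coding gene of the light strand, mt-Nd6, was at 18893, 9164 and 12043 in WT and 8738, 7004 and 8249 in Bmal1 KO (log2 fold change -0.68, SE 0.24, adjusted p = 0.0306). It fell 1.67-fold without overlap, with a wide spread in WT. The call was lost without WT replicate 3 (adjusted p = 0.0611) and without Bmal1 KO replicate 2 (0.0971) or 3 (0.0671).

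The 6 consecutive genes from mt-Co2 to mt-Nd4l had far lower values than their neighbours. All but mt-Atp8 have an annotated copy in the stretch of chromosome 1 shown above. The low genes and that stretch do not coincide fully. It also holds an identical copy of 876 bases of mt-Nd4 (Gm28439), and mt-Nd4 was not among the low genes. Per kilobase of exon, the mean level of mt-Co2 in WT was 52.5 normalized counts, against 142020.0 for mt-Co1. The comparison is approximate, since mt-Co1 itself shares 51.1% of its windows with other annotated genes. The copies of mt-Atp6 (Gm10925), mt-Co2, mt-Co3 (Gm28437) and mt-Nd4l (Gm10222) are identical to the genes over 99.0% to 99.9% of their length. For mt-Atp8 no identical annotated copy was found, and the bases between the copies of mt-Atp6 and mt-Co2 were not searched. How reads matching both places were treated is not given in the sources used here, so the values below are uncertain as levels of mitochondrial mRNA.

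Within this group mt-Nd3 was at 11.9, 10.8 and 5.53 in WT and 119, 95.9 and 147 in Bmal1 KO, 12.8-fold higher (log2 fold change 3.59, SE 0.34, adjusted p = 4.92e-05). All Bmal1 KO values were at least several times the highest WT value. mt-Co2, a catalytic subunit of complex IV, was at 42.2, 39.8 and 25.8 and 11.2, 15.6 and 12.6 (log2 fold change -1.37, SE 0.32, adjusted p = 0.0055), and mt-Atp6 at 33.9, 31.5 and 28.6 and 17.3, 10.8 and 19.4 (log2 fold change -0.98, SE 0.32, adjusted p = 0.0244). Both fell without overlap. The call of mt-Co2 was lost with both replicates numbered 1 left out (adjusted p = 0.0748). That of mt-Atp6 was lost there too (0.1195), and with DESeq2 (0.0725). It was also lost without WT replicate 1 (0.0733) or 2 (0.0520) and without Bmal1 KO replicate 2 (0.0834), where only 3 mitochondrial genes were called lower. mt-Co3 was at 43.1, 29.9 and 32.2 and 40.8, 22.8 and 32.0 and did not pass (log2 fold change -0.16, SE 0.31, adjusted p = 0.663). Below the filter, mt-Atp8 was at 3.67, 5.80 and 2.76 and 1.02, 1.20 and 1.14 and mt-Nd4l at 1.83, 4.98 and 0 and 5.10, 10.8 and 11.4. Neighbours in this stretch thus differed in direction, with mt-Nd3 higher and mt-Co2 and mt-Atp6 lower.

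Reads on the 13 mitochondrial genes made up 1.09%, 1.03% and 1.18% of assigned reads in WT and 0.794%, 0.777% and 0.828% in Bmal1 KO. The means were 1.10% ± 0.0740 and 0.800% ± 0.0260 (SD, n = 3), and the groups did not overlap. The nuclear genes made up 1.07% ± 0.142 and 0.658% ± 0.0469. The ratio of mitochondrial to nuclear reads was 0.885, 1.04 and 1.19 in WT and 1.12, 1.26 and 1.28 in Bmal1 KO, which overlap. Without mt-Co1 the mitochondrial share was 0.503% ± 0.0341 in WT and 0.413% ± 0.0200 in Bmal1 KO. The libraries were made with a stranded mRNA kit, so these are shares of the RNA it selects. The genes from mt-Co2 to mt-Nd4l added few reads (46, 48 and 28 on mt-Co2 in WT). How reads that also match their copies were treated is not given. The shares and the ratio are therefore those of assigned reads, and uncertain as shares of mitochondrial mRNA.

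The mitochondrial ribosomal RNA genes, which the rule does not take because the table lists them without a symbol, were looked at after their values were seen. mt-Rnr1 was at 19765, 12365 and 15554 in WT and 9866, 9323 and 8234 in Bmal1 KO (log2 fold change -0.78, SE 0.16, adjusted p = 0.00296). mt-Rnr2 was at 74959, 45786 and 54573 in WT and 28046, 24730.0 and 26787 in Bmal1 KO (log2 fold change -1.11, SE 0.17, adjusted p = 0.000612). Both fell without overlap, by 1.74-fold and 2.20-fold. With these genes added, the difference in mitochondrial share was -0.41 percentage points, against -0.30 without them.

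Genes that build, regulate and feed the chain were read from 7 lists. Of all genes tested, 36.2% were higher and 34.9% lower, and the counts below are to be read beside these shares. The share lower per list ranged from 43.8% (regulators) to 70.6% (import and chaperones). Of 37 assembly factors outside the symbol rule, 20 fell, 5 rose and 12 did not pass. The complex IV factor Coa4 fell 2.33-fold (324 ± 31.1 in WT and 139 ± 4.80 in Bmal1 KO, SD, n = 3, adjusted p = 8.90e-05). Bcs1l, which inserts the Rieske protein into complex III, fell 1.54-fold and Tmem70, an ATP synthase factor, 1.81-fold (adjusted p = 0.000193 and 0.000199). Ttc19, which acts late in complex III assembly, rose 1.44-fold (adjusted p = 0.00028). The number lower was 13 without Bmal1 KO replicate 3, and the number higher was 3 without WT replicate 3, without Bmal1 KO replicate 1 or 2, and with TMM scaling or scaling to all assigned reads.

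Genes that maintain and transcribe mitochondrial DNA were mostly lower. Of 29 tested 17 fell, 1 rose and 11 were not called, and the median log2 fold change was -0.45. Tfam, which packages the DNA and starts its transcription, went from 3261, 2470.3 and 2688 in WT to 993, 926 and 1067 in Bmal1 KO, 2.82-fold lower (adjusted p = 1.32e-05). The replicative helicase Twnk went from 1581, 1625 and 1579 to 604, 649.8 and 609, 2.57-fold lower (adjusted p = 1.79e-06), and the mitochondrial topoisomerase Top1mt from 1297, 1168 and 1039 to 409.6, 419.6 and 428, 2.79-fold lower (adjusted p = 7.86e-06). None of these 3 had overlapping groups. Tbrg4, an RNA-binding protein of mitochondria, fell 1.76-fold (adjusted p = 2.04e-05).

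Of 16 transcription factors and coactivators that act on nuclear respiratory genes, 8 rose, 7 fell and 1 did not pass. Gabpa, the DNA-binding subunit of GABP, rose from 1567, 1533 and 1573 in WT to 2649, 2589.8 and 2455 in Bmal1 KO (adjusted p = 2.44e-05). Its partner Gabpb1 fell from 1292, 1109.5 and 1127 to 681, 640.3 and 642 (adjusted p = 7.20e-05), so the 2 subunits went in opposite directions. Mef2c, a muscle transcription factor, rose 8.38-fold (adjusted p = 7.84e-06), and Esrra, an estrogen-related receptor, fell 1.55-fold (adjusted p = 9.72e-05). Named after their values were seen, Nrf1 fell 1.32-fold (adjusted p = 0.00278), the coactivator Ppargc1b fell 3.39-fold (adjusted p = 0.000472) and Ppargc1a, at 102 ± 1.51 in WT and 176 ± 54.9 in Bmal1 KO, rose 1.73-fold (adjusted p = 0.0293). The call of Ppargc1a was lost without WT replicate 1 (0.0588) or 3 (0.0688) and without Bmal1 KO replicate 1 (0.0957) or 2 (0.101).

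In ubiquinone synthesis 7 of 13 genes fell, 2 rose and 4 did not pass. Coq6, Coq9 and Coq5 fell 1.90-fold, 1.41-fold and 1.49-fold, and Coq8a (also called Adck3), a kinase-like protein, rose 2.13-fold (adjusted p = 0.000171). In the tricarboxylic acid cycle and pyruvate dehydrogenase 9 of 17 fell, 5 rose and 3 did not pass. The number higher was 3 without Bmal1 KO replicate 1 or 2, where Dlst (adjusted p = 0.0702 and 0.0522) and Dlat (0.0733 and 0.0778) lost their calls, and also 3 with TMM scaling or scaling to all assigned reads. Idh2, the NADP-dependent isocitrate dehydrogenase, fell 2.31-fold (adjusted p = 1.94e-06) and Suclg2, a succinyl-CoA ligase subunit, 2.32-fold (adjusted p = 1.00e-05), Mdh2 fell 1.53-fold, and Pdha1, a pyruvate dehydrogenase subunit, rose 1.67-fold (adjusted p = 1.29e-05). A difference between the cycle and the chain was not tested.

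Among genes for other electron entry and for inner membrane carriers 11 of 16 fell, none rose and 5 did not pass. Without WT replicate 1, Slc25a5 (adjusted p = 0.00479) and Vdac1 (0.00670), an ADP/ATP carrier and an outer membrane channel, were called higher. The carrier gene Ucp2 went from 9132, 11315 and 9934 in WT to 782, 605 and 1012 in Bmal1 KO, 12.7-fold lower (adjusted p = 1.23e-06). Sulfide quinone oxidoreductase (Sqor, also called Sqrdl) fell 2.00-fold, Atpif1, the inhibitor of ATP synthase, 1.94-fold, and Dhodh, which passes electrons from pyrimidine synthesis to ubiquinone, fell from 884 ± 74.6 to 589 ± 14.9 (SD, n = 3). In the list of protein import, proteases and chaperones 12 of 17 fell, 1 rose and 4 did not pass. The gene that rose, Timm17a, lost its call without WT replicate 2 (adjusted p = 0.0723) or 3 (0.0943) and without Bmal1 KO replicate 1 (0.0843) or 3 (0.0686), leaving 0 higher. Hspa9, the matrix Hsp70, went from 41187, 41781 and 40623 to 15163, 14675 and 14546 (adjusted p = 7.14e-07), the protease Lonp1 from 11615, 12328 and 11321 to 4360.4, 4449 and 4337 (adjusted p = 5.70e-07) and the import receptor Tomm20 from 5892, 5728 and 5549.8 to 2299, 2387 and 2298 (adjusted p = 7.27e-07). These 3 fell without overlap, 2.78-fold, 2.68-fold and 2.46-fold, and the chaperonin gene Hspd1 fell 1.73-fold (adjusted p = 4.30e-05).

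**Figure D5:**
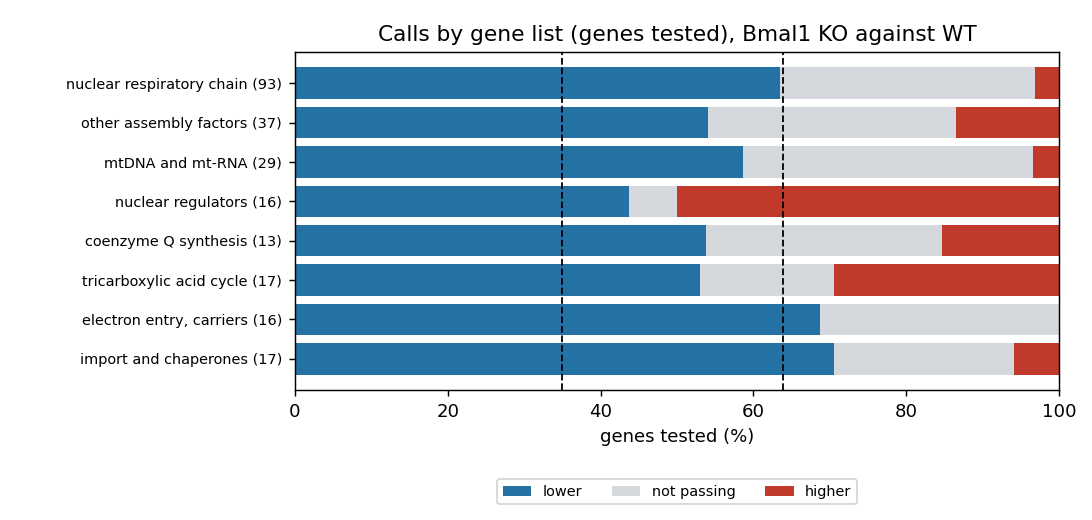
Percent of genes tested that were lower (blue), did not pass (grey) or were higher (red) in Bmal1 KO, for the nuclear respiratory chain genes and 7 related lists, with the number tested in brackets. Dashed lines mark the shares of all genes tested, 34.9% lower from the left and 36.2% higher from the right: the regulators have the largest red share, 8 of 16.

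The nuclear genes share short transcripts. The median exon length of the 92 tested with a length was 1696.5 bases, against 4283 over all genes tested. Across these 92 genes log2 length and log2 fold change had a Pearson r of 0.15 (Spearman's rho 0.20), and across all 15641 genes with a length 0.10 (0.14), as a description only, since genes are not independent replicates. Between 1000 and 2000 bases 74.3% of 35 chain genes fell, beside 39.1% of all 1778 genes of that length, and up to 1000 bases 50% of 22 fell, beside 43.2% of 651. From 2000 to 4000 bases 70.8% of 24 fell, beside 39.4% of 4778, and above 4000 bases 45.5% of 11, beside 30.8% of 8434. Taking out a trend on length and base composition left 55 nuclear genes lower and 4 higher. Genes with and without a 50-base window in another annotated gene are given side by side: 27 of 41 with one fell (65.9%) and 32 of 52 without (61.5%).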

How the data were processed

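The authors deposited 1 signal per gene and library, a normalized read count. The submitters' processing notes list Trimmomatic, HISAT2, featureCounts and mm10, with neither versions nor roles. Annotation, strand setting and the handling of multiply matching reads: not given in the sources used here. Dividing each deposited signal by the smallest step of its library gave back whole reads for 100% of values within 0.01. All 6 columns were mapped to samples by name.

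All genes with 10 or more in 3 or more libraries entered limma 3.58.1 (R 4.3.3) as log2(value + 1), with trended prior variance and group as the only term, Benjamini-Hochberg adjustment over the whole table and a threshold of 0.05. The pseudocount makes log2 fold changes of low genes too small. Folds are ratios of mean normalized counts. The fit was tested on simulated data. Alternatives were other scalings, pseudocounts and filters, a replicate block, each library left out, a length and GC trend removed, and edgeR 4.0.16 and DESeq2 1.42.0 on the recovered reads, which called 11479 and 11267 genes. Differences between replicates exceeded sampling noise in every pair. Lengths, coordinates, copies and windows came from GENCODE and RefSeq annotation of GRCm38, and 25275 Gene IDs matched the RefSeq table. Copies were found as 50-base windows of 1 transcript per gene that occur in annotated transcripts of genes elsewhere.

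Any gene of the chain could be named. Values in every library were given for the mitochondrial genes, the catalytic core and isoform lists, the X-linked genes, and, with a mean of at least 100, the 2 largest rises and 2 largest falls of each complex. The other members were summarised, and values of 1 core gene are not reported here. From each other list up to 4 genes with the smallest adjusted p were named. The members and lists were chosen with earlier results of these data known.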

Additional observations from a re-analysis of the deposited data

How the results depend on the processing

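No member changed direction with a call in any alternative. Of the 59 nuclear genes lower, 47 kept their call in every alternative in which they were tested, and Cox4i2 and Ndufaf5 kept theirs of the 3 higher. In the mitochondrial genome 2 of the 6 lower (mt-Co1 and mt-Nd1) and 1 of the 3 higher (mt-Nd3) did so. The gene mt-Nd3 met the filter only with its Bmal1 KO libraries, and its level is uncertain. The level of mt-Co1 is uncertain too, because 51.1% of its windows also occur in other annotated genes. Nuclear genes lower ranged from 47 (without Bmal1 KO replicate 2 or 3) to 65. With single libraries left out, the complex IV median ranged from -0.92 to -0.53, the smallest fall being without WT replicate 1, mitochondrial genes lower from 3 to 6 and higher from 1 to 3. With both replicates numbered 1 left out, an alternative chosen after seeing the data, 5 nuclear genes were higher and 63 lower. Adding the ribosomal RNA genes, also chosen after seeing the data, moved the difference in mitochondrial share to -0.41 percentage points. Upper-quartile scaling gave 54 lower and 4 higher. With 3 libraries per group, whether replicate numbers pair the libraries cannot be decided. Deviations of same-numbered libraries correlated at -0.0045, 0.026 and 0.084 over all genes tested. Over the nuclear members alone they correlated at 0.31, 0.16 and 0.065, and those of differently numbered libraries at -0.34 to 0.28. Not every library correlated best with its own number in either set. A fit with the replicate block gave 65 nuclear genes lower and 4 higher: Ndufb3, Uqcrb, Atp5pb, Sdhb, Ndufa3 and Ndufa1 were added as lower, Atp5j as higher, and in the mitochondrial genome mt-Nd2 was added as lower and mt-Nd5 lost. Low counts limit mt-Co2 to mt-Nd4l, Sdhd and Uqcr11 most.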
